A study of Mus musculus with 102 samples.

Results

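The 56 genes described here are protein-coding neighbours of Mtor on mouse chromosome 4. They were chosen by name from the distal arm around Mtor, and Mtor itself was left out of the list. Each expression table holds 51810 gene symbols, of which 25214 had at least 1 read in the table used for the genotype comparison, and 55 of the 56 members were among those. On the GRCm38 build the members lie between -3.25 Mb and 3.83 Mb from Mtor, where a minus sign means before it. Mtor spans chr4:148448611-148557683 on the forward strand. 15 members precede Mtor and 41 follow it.

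The series measured transcript levels in male mice by sequencing libraries made from total RNA. The comparison that concerns Mtor uses 12 spleens: 3 WT and 3 mTOR animals of 5 months, and 3 WT and 3 mTOR animals of older age, where each genotype has 1 animal of 21 months and 2 of 23 months. The titles name the strain BL6J for both genotypes, the genotype field reads only WT or mTOR, and the labels describe neither the allele nor the breeding of the animals. 2 other tables follow 45 spleens and 45 brains of WT BL6J males at 3, 5, 8, 14, 20 and 26 months. In those 2 tables the titles give spleens and brains the same animal numbers. The titles give each library of the mTOR table its own animal number.

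The 12 libraries of the mTOR table held 7733716 to 14112504 reads in genes, the ageing spleens 3031246 to 11702988 and the ageing brains 4072076 to 13655235. Some libraries stood apart in RNA of other cells. Exocrine pancreas markers summed to a normalized value of 10058 and 17037 in mTOR replicates 1 and 3 of 5 months and to 3210 or less elsewhere. Erythroid markers reached 29943 in old mTOR replicate 1 against 15109 or less in the others. Counts of called members without these libraries rich in pancreas or erythroid RNA are given beside the results. Adipocyte markers summed to 3301 and 3293 in old mTOR replicates 1 and 3 and to 2000.9 or less elsewhere.

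Mtor encodes the kinase at the core of the mTORC1 and mTORC2 complexes, which couple nutrients and growth factors to protein synthesis, autophagy and cell growth. Its chromosomal neighbours have no common pathway: they include TNF receptor family genes, F-box and other ubiquitin ligase subunits, KRAB zinc finger genes in a repeated cluster, and genes for mitochondrial, vesicular, metabolic and nuclear proteins. KRAB zinc finger genes encode repressors that bind DNA and recruit silencing chromatin, and they are known to arise by tandem duplication.

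Mtor was lower in every mTOR library than in any WT library. The deposited normalized value, a read count divided by 1 size factor per library, was 326, 339 and 368 in WT and 218, 242 and 286 in mTOR spleens at 5 months. It was 346, 342 and 329.7 in WT and 229.7, 256 and 276 in mTOR spleens at 21 or 23 months. All 6 mTOR values lay below all 6 WT values, and the log2 fold change of mTOR against WT, averaged over both ages, was -0.45 (SE 0.093, adjusted p = 0.0118). Fold changes throughout are differences of log2(normalized value + 1) from limma, p-values are Benjamini-Hochberg adjusted over all tested genes of a comparison, and a gene is called at an adjusted p under 0.05. Without the 2 mTOR libraries of 5 months that held the most exocrine pancreas RNA the Mtor difference was -0.46 with an adjusted limma p of 0.0724. In whole spleen, fewer cells of a type and less RNA per cell cannot be told apart.

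Averaged over both ages, 16 of the 56 members were called, where 7.93% of all 15512 tested genes were called. 7 were higher in mTOR spleens, namely Zfp990, Zfp534, Cort, Masp2, Clcn6, Kif1b and Camta1. 9 were lower, namely Draxin, Fbxo44, Tnfrsf8, Agtrap, Mfn2, Acot7, Tnfrsf1b, Gpr157 and Casz1. Of all tested genes 3.2% were called higher and 4.73% lower. 3 members could not be tested because they did not reach a normalized value of 10 in 3 libraries: Tnfrsf9, Fbxo2 and Vamp3, the last listed at 0 in every library of all 3 tables.

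Zfp990, Zfp534, Cort and Masp2 passed the filter on low values only through mTOR libraries and Fbxo44 only through WT libraries, so their place among the tested genes depends on their being high there. The other 48 tested members held 11 of the calls, 3 higher and 8 lower. The median absolute log2 fold change was 0.34 over the 53 tested members and 0.29 over those 48, against 0.18 over all tested genes. The median signed change was -0.086 over the 53 members and -0.12 over the 48, against 0.012 over all tested genes. With no filter on low values 15 of 55 members with reads were called, where 3.92% of 25214 genes were.

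**Figure D1:**
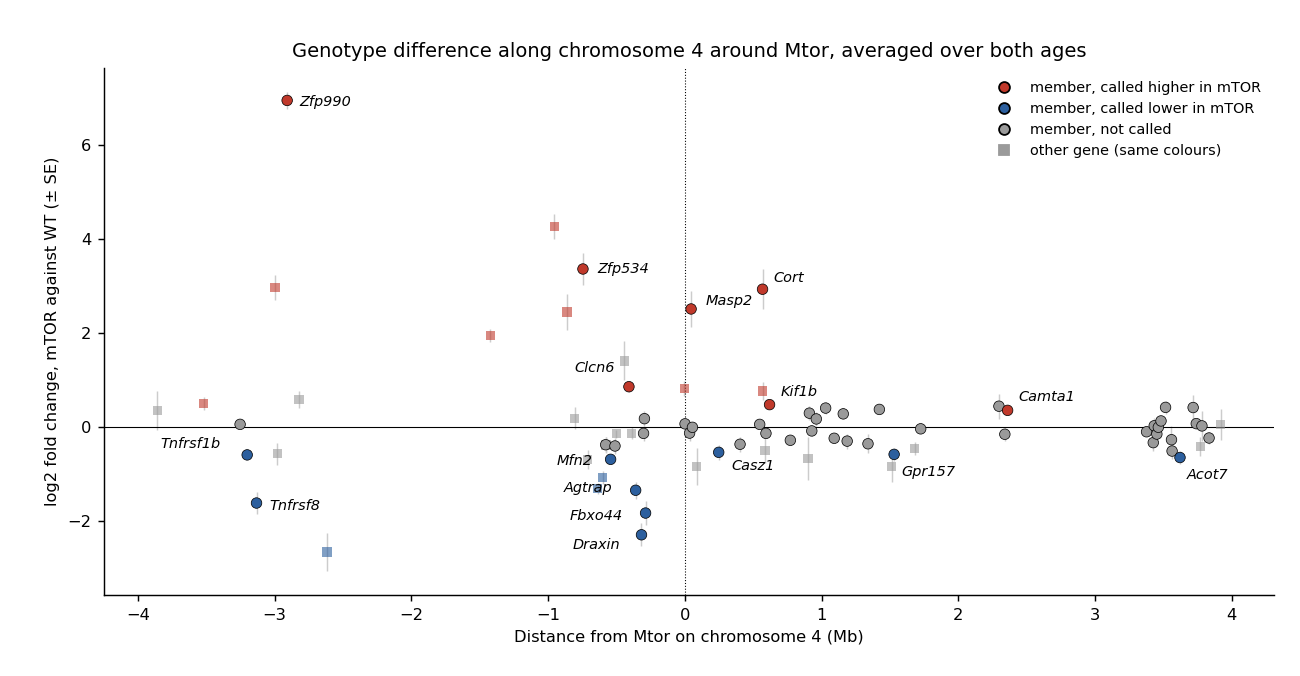
Log2 fold change of mTOR against WT averaged over both ages (vertical axis, bars are ± SE) against distance from Mtor in Mb (horizontal axis) for the tested genes within 5 Mb, with members as circles and other genes as squares. Zfp990 stands at 6.96 on the vertical and -2.91 Mb on the horizontal axis, and 3 of the 4 called members with the largest decreases, Draxin, Fbxo44 and Agtrap, sit less than 1 Mb before Mtor, while the other, Tnfrsf8, stands at -3.13 Mb.

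2 pairs of neighbours near Mtor lie head to head on opposite strands. For Draxin and Mad2l2 the annotated genes overlap, because 1 Mad2l2 transcript starts at base 148130384, inside the first Draxin intron. The stretch shown for this pair is the 216 bases between the first exon of Draxin and the Mad2l2 exon that follows it, which is intronic for that earlier Mad2l2 transcript. Fbxo44 and Fbxo2 do not overlap and are separated by 138 bases. The stretches below are from RefSeq promoter windows on GRCm38.p6, as are the 250 bases upstream of Zfp534 and of Cort, members with few reads in WT and more in mTOR spleens. RefSeq windows were found for 51 of the 56 members. Capitals mark matches to GGGCGG (the GC box), CCAAT or TATAAA on either strand, and no match overlapped another.
Between the first exon of Draxin and the next exon of Mad2l2, chr4:148130699-148130914, reverse strand: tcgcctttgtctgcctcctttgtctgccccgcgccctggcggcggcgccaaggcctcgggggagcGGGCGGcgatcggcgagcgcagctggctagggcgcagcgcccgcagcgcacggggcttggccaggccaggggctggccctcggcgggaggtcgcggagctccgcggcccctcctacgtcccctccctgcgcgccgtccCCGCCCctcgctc
Between Fbxo44 and Fbxo2, chr4:148160483-148160620, forward strand: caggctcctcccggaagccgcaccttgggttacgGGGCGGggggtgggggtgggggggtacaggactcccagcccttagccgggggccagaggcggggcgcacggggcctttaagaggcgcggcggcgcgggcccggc
Upstream of Zfp534, chr4:147702632-147702881, reverse strand: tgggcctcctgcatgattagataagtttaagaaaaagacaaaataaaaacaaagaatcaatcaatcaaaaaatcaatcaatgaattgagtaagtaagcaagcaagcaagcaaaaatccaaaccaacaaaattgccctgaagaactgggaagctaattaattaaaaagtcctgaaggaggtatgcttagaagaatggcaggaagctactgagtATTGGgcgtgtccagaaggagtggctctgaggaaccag
Upstream of Cort, chr4:149126764-149127013, reverse strand: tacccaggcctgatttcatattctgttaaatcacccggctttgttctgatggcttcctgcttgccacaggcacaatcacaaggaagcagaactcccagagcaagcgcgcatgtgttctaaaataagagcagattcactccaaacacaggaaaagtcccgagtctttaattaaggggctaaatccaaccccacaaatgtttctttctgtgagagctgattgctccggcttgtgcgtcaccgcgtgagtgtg

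The stretch upstream of Draxin is 78.7% G and C, contains 30 CpG dinucleotides and has 2 matches to GGGCGG, 1 on each strand. A match was present in 31.6% of the 32817 RefSeq upstream windows when each was trimmed to the same length. Between Fbxo44 and Fbxo2 the G and C share is 77.5%, and the 1 match to GGGCGG compares with 27.9% of windows of that length that hold one. The Zfp534 upstream stretch is 38.0% G and C with 1 CpG, and its only match is to CCAAT, on the opposite strand, which 33.8% of windows hold. No match to any of the 3 motifs was found in the 250 bases before Cort. All 4 stretches overlap no annotated exon, and a match is a description of the letters only.

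The 9 chromatin and transcription members included the largest change in the region, with 3 called higher and 1 called lower. Zfp990, a KRAB zinc finger gene, was 1.11, 2.14 and 2.24 in WT and 492, 442 and 477 in mTOR spleens at 5 months. It was 3.33, 4.26 and 2.04 in WT and 331, 421 and 369 in mTOR spleens at 21 or 23 months. No WT library exceeded 4.26 and no mTOR library fell below 331, so the groups were far apart at both ages. On the log2 scale the difference was 6.96 (SE 0.19, adjusted p = 2.16e-10). In whole reads the 6 WT libraries held 16 and the 6 mTOR libraries 2566, a depth-scaled ratio of 174 with a 95% interval of 107 to 305 that covers counting error only.

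Zfp534, another zinc finger gene of the cluster before Mtor, was 2.22, 4.28 and 2.24 in WT and 35.5, 38.0 and 25.4 in mTOR spleens at 5 months. It was 2.001, 0 and 2.04 in WT and 20.3, 29.3 and 23.6 in mTOR spleens at 21 or 23 months. All mTOR values lay above all WT values, and the log2 fold change was 3.36 (SE 0.34, adjusted p = 0.000137). The 13 WT and 176 mTOR reads give a ratio of 14.7 (95% interval 8.38 to 28.2). Of the 50-base stretches of its annotated transcripts 68.4% occur in another gene, 53.9% in Zfp987, and for Zfp990 the shares are 29.1% and 13.1%, so reads of these copies could be split or exchanged and both values are uncertain to that extent. Zfp987 itself was listed between 2.001 and 5.61 in WT and between 0 and 3.71 in mTOR libraries.

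Camta1, a transcription factor that responds to calmodulin, was 579, 641 and 607 in WT and 863, 890.0 and 755.3 in mTOR spleens at 5 months. It was 665, 582 and 587 in WT and 652, 809 and 725 in mTOR spleens at 21 or 23 months. The genotypes did not overlap at 5 months, and at the later ages 1 mTOR library fell among the WT values. Its log2 fold change was 0.35 (SE 0.083, adjusted p = 0.0218), and the call was lost without mTOR replicate 1 or 2 of 5 months. Casz1, a zinc finger regulator of cardiovascular and lymphoid cell fate, was 318, 232 and 157 in WT and 146, 137 and 159.9 in mTOR spleens at 5 months, a range in which the highest mTOR library passed the lowest WT library.
Casz1 was 182, 147 and 159 in WT and 126, 104 and 122 in mTOR spleens at 21 or 23 months, where the groups did not overlap. The log2 fold change was -0.54 (SE 0.15, adjusted p = 0.0476), close to the threshold, and the call was lost in 15 of 22 alternatives. The other 5 members of the group were not called: Rere, a co-repressor, at -0.041, Phf13, a histone reader, at 0.024, Zbtb48, a telomere-binding zinc finger protein, at -0.008, Thap3 at -0.34 and Chd5, a chromatin remodeller, at 0.021.

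Of the 4 TNF receptor superfamily members 2 were called lower and none higher, and they lie side by side more than 3 Mb before Mtor. Tnfrsf8 encodes CD30, a receptor of activated lymphocytes. It was 46.6, 68.4 and 57.2 in WT and 24.0, 25.03 and 9.53 in mTOR spleens at 5 months. It was 107, 66.1 and 107 in WT and 31.1, 26.3 and 28.5 in mTOR spleens at 21 or 23 months. The highest mTOR value, 31.1, lay below the lowest WT value, 46.6. This gave a log2 fold change of -1.62 (SE 0.24, adjusted p = 0.00179). Tnfrsf1b, which encodes TNF receptor 2, was 907, 1033 and 1181 in WT and 744, 756 and 718 in mTOR spleens at 5 months. At the later ages it was 1354, 1129.9 and 1121 in WT and 763, 735 and 699.5 in mTOR spleens. Again every mTOR library was below every WT library, with a log2 fold change of -0.60 (SE 0.084, adjusted p = 0.0012). Tnfrsf25, the death receptor DR3 of T cells, was 14.4, 29.4 and 41.3 (lowest, median, highest) in WT and 9.27, 26.8 and 31.4 in mTOR libraries, and its change of -0.27 was not called. Tnfrsf9, which encodes 4-1BB, had 10 reads in all WT and 32 in all mTOR libraries, a ratio of 3.48 with a 95% counting interval of 1.67 to 7.93.

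Fbxo44 was the 1 called member among 6 ubiquitin ligase and F-box genes. F-box proteins hold the substrate in SCF ubiquitin ligases. Fbxo44 was 18.8, 25.7 and 25.8 in WT and 2.66, 2.78 and 5.30 in mTOR spleens at 5 months. It was 26.7, 27.7 and 29.5 in WT and 11.96, 7.81 and 15.7 in mTOR spleens at 21 or 23 months. The mTOR values were lowest at 5 months and stayed below every WT value at both ages. The log2 fold change was -1.84 (SE 0.25, adjusted p = 0.000996).
The neighbour that shares its upstream stretch, Fbxo2, a brain-enriched F-box protein that binds glycoproteins, had 34 WT and 35 mTOR reads, a ratio of 1.12 (95% counting interval 0.677 to 1.85). Fbxo6, another F-box gene beside them, was 88.7, 69.5 and 109.9 in WT and 74.5, 79.7 and 104 in mTOR spleens at 5 months. It was 71.4, 84.2 and 86.5 in WT and 124, 107 and 89.4 in mTOR spleens at 21 or 23 months. Its groups overlapped at 5 months, and at the later ages all mTOR values lay above all WT values. The average change of 0.18 (SE 0.15, adjusted p = 0.519) was the highest of the group and was not called. Ube4b, a ubiquitin chain elongation factor, was 1115, 1187 and 1226 in WT and 845, 868 and 913 in mTOR spleens at 5 months, without overlap. At the later ages Ube4b was 1052, 961 and 1058 in WT and 975.1, 783 and 1037 in mTOR spleens, with overlap, and the average change of -0.29 (SE 0.083, adjusted p = 0.0512) just missed the threshold. Klhl21, a cullin adaptor of cell division, changed by -0.15 and Spsb1, a SOCS-box adaptor, by -0.36, and neither was called.

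Mfn2 was the 1 called member among 4 mitochondrial and peroxisomal genes. It encodes mitofusin 2, which fuses outer mitochondrial membranes. Mfn2 was 417, 359 and 462 in WT and 249, 225 and 226 in mTOR spleens at 5 months. It was 386, 433 and 370.4 in WT and 272, 257 and 271.2 in mTOR spleens at 21 or 23 months. The mTOR values formed a narrow band below all WT values at both ages. Its log2 fold change was -0.69 (SE 0.09, adjusted p = 0.000681). Dnajc11, a mitochondrial cristae protein, had the smallest change of the group and was 366, 385 and 467 (lowest, median, highest) in WT and 289, 393 and 407 in mTOR libraries, with a log2 fold change of -0.10 (SE 0.10, adjusted p = 0.56). Pex14, a protein of peroxisomal import, changed by -0.37 and Slc25a33, a mitochondrial pyrimidine carrier, by -0.30, and neither was called.

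Among the 6 channel, vesicle and transport members 2 were called higher and none lower. Clcn6 encodes a late endosomal chloride and proton exchanger. It was 102, 152 and 112 in WT and 256, 247 and 249.98 in mTOR spleens at 5 months. It was 162, 166 and 142 in WT and 224, 249 and 273 in mTOR spleens at 21 or 23 months. Every mTOR library was above every WT library, with a log2 fold change of 0.86 (SE 0.11, adjusted p = 0.000824). Kif1b, a kinesin that carries mitochondria and synaptic vesicle precursors, was 1302, 1559 and 1230.5 in WT and 2069, 2344 and 1982 in mTOR spleens at 5 months. It was 1714, 1459 and 1627 in WT and 1730.0, 2088 and 2107 in mTOR spleens at 21 or 23 months. All 6 mTOR values lay above all 6 WT values. Kif1b changed by 0.47 (SE 0.09, adjusted p = 0.00767) on the log2 scale. Kcnab2, a potassium channel subunit, had the lowest change of the group: it was 572, 662 and 849.5 (lowest, median, highest) in WT and 455, 612 and 629 in mTOR libraries, with a log2 fold change of -0.24 (SE 0.12, adjusted p = 0.238). Clstn1, a cargo linker of kinesin, changed by 0.40 and Vps13d, a lipid transfer protein, by 0.054, and neither was called.

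Agtrap and Gpr157 were called lower among 7 signalling and growth control genes. Agtrap encodes a protein that binds the angiotensin II type 1 receptor and promotes its internalization. Agtrap was 980.1, 655 and 536 in WT and 212, 254 and 219 in mTOR spleens at 5 months. It was 554, 417 and 727 in WT and 365, 232 and 207 in mTOR spleens at 21 or 23 months. WT libraries spread widely, yet the highest mTOR value of 365 was below the lowest WT value of 417. Agtrap changed by -1.35 (SE 0.18, adjusted p = 0.00085) on the log2 scale. Gpr157, an orphan receptor of neural progenitor cilia, was 186, 158 and 195 in WT and 128, 126 and 89.0 in mTOR spleens at 5 months. It was 184, 158 and 228 in WT and 114, 139 and 145 in mTOR spleens at 21 or 23 months. The groups did not overlap, and the log2 fold change was -0.59 (SE 0.14, adjusted p = 0.0207). Errfi1, a feedback inhibitor of EGF receptor signalling, had the highest change of the group and was 176, 271.3 and 479 (lowest, median, highest) in WT and 257, 389.7 and 546 in mTOR libraries, with a log2 fold change of 0.44 (SE 0.26, adjusted p = 0.331). Pik3cd, the leukocyte catalytic subunit of PI3 kinase delta, was 2119, 2395 and 2590.0 in WT and 2086, 2057 and 2001 in mTOR spleens at 5 months. It was 2027, 2371 and 2332 in WT and 1688, 1748 and 2119 in mTOR spleens at 21 or 23 months. The mTOR values lay below the WT values at 5 months and overlapped them later, and the average change of -0.24 (SE 0.085, adjusted p = 0.0981) was not called. Plekhg5 at 0.42, Gpr153 at 0.41 and Ctnnbip1, an inhibitor of beta-catenin, at 0.17 were not called.

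Acot7 was the 1 called member of 8 metabolic and modifying enzymes. It encodes a cytosolic acyl-CoA thioesterase. Acot7 was 133, 125 and 154 in WT and 94.9, 93.6 and 95.3 in mTOR spleens at 5 months. It was 138, 205 and 149 in WT and 89.7, 83.9 and 109 in mTOR spleens at 21 or 23 months. The mTOR libraries were all lower, and those of 5 months nearly coincided. Its log2 fold change was -0.65 (SE 0.13, adjusted p = 0.00935). H6pd, the hexose-6-phosphate dehydrogenase of the endoplasmic reticulum, had the highest change of the group at 0.37 (SE 0.11, adjusted p = 0.051), just outside the threshold. It was 255, 298 and 248 in WT and 339.8, 437 and 312 in mTOR spleens at 5 months. It was 372, 379 and 447 in WT and 473, 455 and 564 in mTOR spleens at 21 or 23 months. Its genotypes did not overlap within an age, while the old WT values reached those of young mTOR spleens. Plod1, a collagen lysyl hydroxylase, changed by -0.41, Nmnat1, a nuclear NAD-producing enzyme, by 0.29, Park7, which encodes DJ-1, by -0.16, Pgd, of the pentose phosphate pathway, by -0.14, Srm, the spermidine synthase, by -0.13 and Icmt, a prenylcysteine methyltransferase, by 0.07, and none was called.

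The 4 secreted, neuronal and sensory members held 2 called increases and 1 called decrease. Draxin encodes a secreted axon guidance protein that inhibits Wnt signalling. It was 114, 96.2 and 102 in WT and 17.7, 12.1 and 37.1 in mTOR spleens at 5 months. It was 126, 90.6 and 108 in WT and 15.6, 27.3 and 22.6 in mTOR spleens at 21 or 23 months. The highest mTOR value, 37.1, was well below the lowest WT value, 90.6. The log2 fold change was -2.30 (SE 0.24, adjusted p = 0.000183), the most negative among the members. Mad2l2, its overlapping neighbour on the other strand, was 52.1, 35.3 and 42.6 in WT and 31.1, 24.1 and 35.0 in mTOR spleens at 5 months. At the later ages Mad2l2 was 37.3, 36.2 and 37.7 in WT and 41.9, 48.8 and 41.3 in mTOR spleens. All mTOR values were below all WT values at 5 months and above them later, and the average change of -0.14 (SE 0.17, adjusted p = 0.654) was not called.

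Cort, which encodes the neuropeptide cortistatin, was 1.11, 0 and 1.12 in WT and 22.2, 16.7 and 29.7 in mTOR spleens at 5 months. It was 4.67, 1.07 and 1.02 in WT and 4.79, 18.5 and 13.8 in mTOR spleens at 21 or 23 months. At 5 months all mTOR values were far above WT, and at the later ages the lowest mTOR library, at 4.79, stood just above the highest WT library, at 4.67. The log2 fold change was 2.93 (SE 0.43, adjusted p = 0.00156). With 11 WT and 108 mTOR reads the ratio was 10.7 (95% counting interval 5.73 to 22.0). Masp2, a serine protease of the lectin complement pathway, was 3.33, 1.07 and 0 in WT and 24.8, 19.5 and 19.1 in mTOR spleens at 5 months. It was 6.67, 4.26 and 3.05 in WT and 15.6, 11.7 and 21.6 in mTOR spleens at 21 or 23 months. The groups did not overlap, the log2 fold change was 2.51 (SE 0.37, adjusted p = 0.00179), and 21 WT against 114 mTOR reads gave a ratio of 5.90 (95% counting interval 3.68 to 9.89).

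With a pseudocount of 5 in place of 1 the log2 fold changes of the low-count genes were smaller and still called, at 1.73 for Cort, 1.59 for Masp2, 2.24 for Zfp534 and 5.83 for Zfp990.

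Masp2 shares 54.9% of its exon bases, 1817 bases, with Tardbp on the opposite strand, and whether the counting used strand is not given in the sources used here. Tardbp, which encodes the RNA-binding protein TDP-43, was 4879.6, 5897 and 7248 (lowest, median, highest) in WT and 5033, 5872 and 6572 in mTOR libraries. Its change of -0.0092 (SE 0.10, adjusted p = 0.967) was not called. Without strand, reads from the shared bases cannot be assigned to either gene, so the Masp2 value is uncertain. Espn, an actin bundler of sensory cells, was 144, 71.6 and 119 in WT and 65.7, 50.1 and 49.8 in mTOR spleens at 5 months and 122, 94.9 and 116 in WT and 104, 88.8 and 125 in mTOR spleens at 21 or 23 months. At 5 months every mTOR library was below every WT library, and at the later ages the groups overlapped. The average change of -0.51 (SE 0.18, adjusted p = 0.0946) was not called.

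None of the 3 RNA binding members and none of the 5 cell division, cell death and nuclear envelope members was called. Exosc10, a nuclease of the nuclear exosome that lies next to Mtor, was 649, 714 and 974.6 (lowest, median, highest) in WT and 731, 779.9 and 852 in mTOR libraries, a change of 0.065 with a 95% interval of -0.12 to 0.25. Nol9, a kinase of ribosomal RNA processing, changed by 0.13. Miip, an inhibitor of cell migration, was 102, 127 and 186 (lowest, median, highest) in WT and 87.4, 94.8 and 129 in mTOR libraries, with a change of -0.38 (SE 0.16, adjusted p = 0.157), and Tmem201, an inner nuclear membrane protein, was 113, 137 and 160.4 (lowest, median, highest) in WT and 148, 166 and 181 in mTOR libraries, with 0.28 (SE 0.11, adjusted p = 0.156). Dffa, the inhibitor of the apoptotic DNase, changed by 0.053 and Lzic by -0.086. Over the 37 tested members that were not called, changes ran from -0.51 to 0.44.

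**Figure D2:**
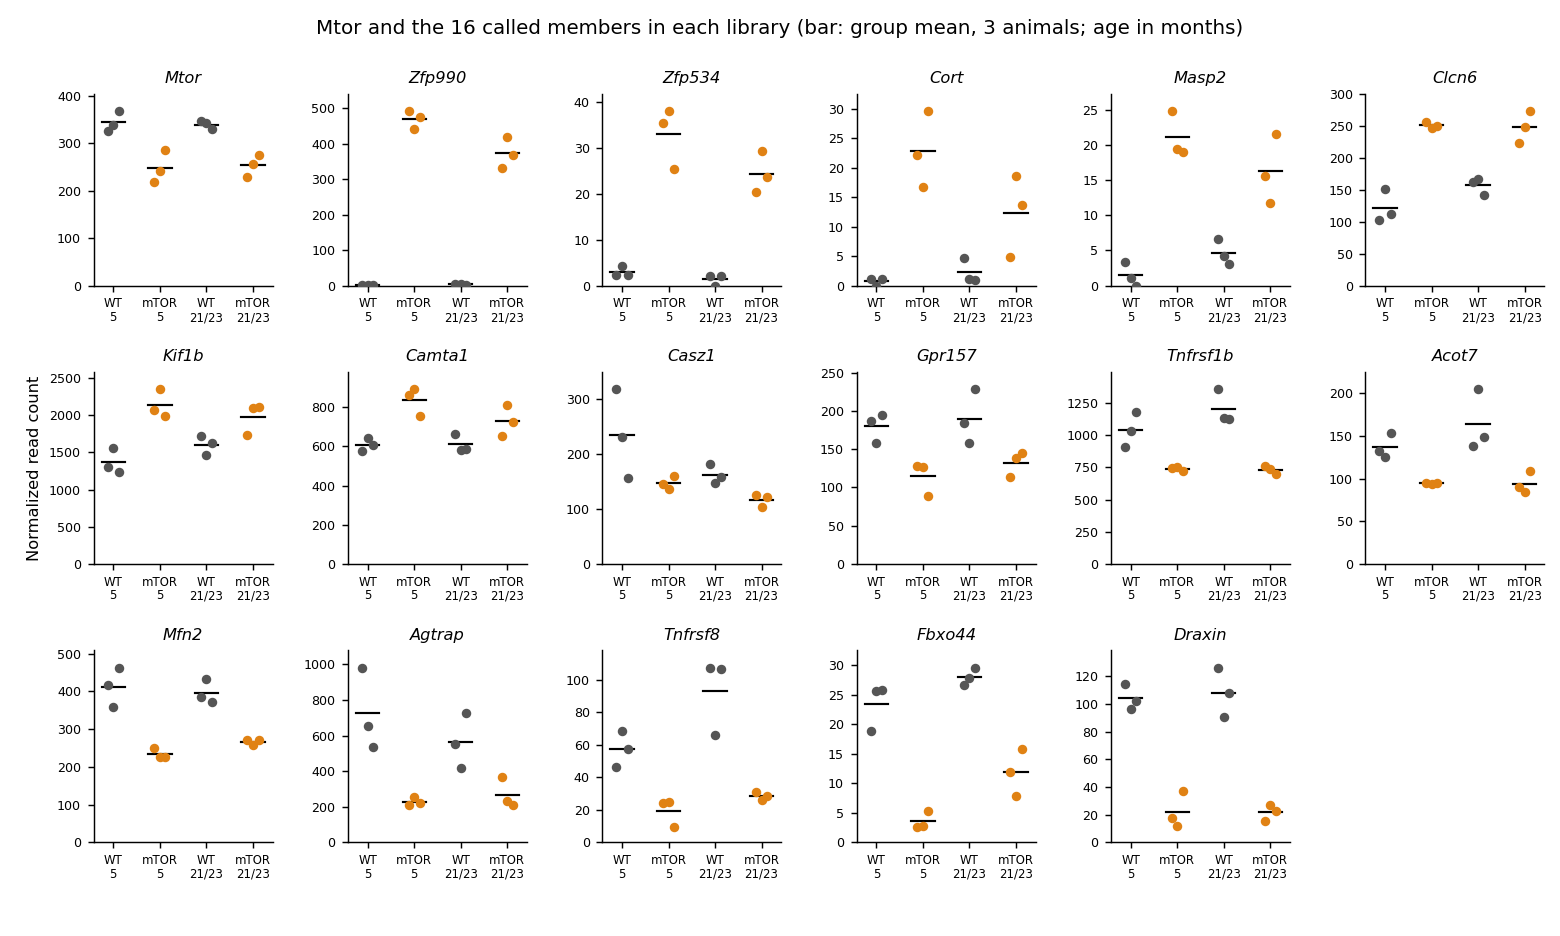
Normalized read count (vertical axes, each from 0) of Mtor and the 16 called members in each of the 12 libraries, by genotype and age in months (horizontal axes), where points are animals and bars are group means of 3. Zfp990 stays at or below 4.26 in WT and at or above 331 in mTOR spleens, and Draxin at or above 90.6 in WT and at or below 37.1 in mTOR.

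Of the members, 14 had 6 mTOR values that did not overlap the 6 WT values, 6 higher and 8 lower, where 3.73% of tested genes did so. All 14 were among the 16 called members, and the other two, Camta1 and Casz1, overlapped in at least 1 library. Within an age, 25 members had 3 mTOR values clear of the 3 WT values at 5 months, where 23.9% of tested genes did, and 26 at 21 or 23 months, where 19.7% did. For 15 members this held at both ages in the same direction, against 6.55% of tested genes. For 1, Mad2l2, it held in opposite directions, against 0.277%.

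At 5 months 11 members were called, 6 higher and 5 lower, where 1.83% of tested genes were called, 0.464% higher and 1.37% lower. At 21 or 23 months 7 were called, 2 higher and 5 lower, where 1.81% of tested genes were, 0.812% higher and 0.999% lower. Tnfrsf8, Zfp990, Zfp534, Mfn2 and Draxin were called at both ages. Fbxo44, Clcn6, Kif1b, Agtrap, Cort and Masp2 were called at 5 months only, and Tnfrsf1b and Acot7 at the later ages only. Camta1, Casz1 and Gpr157 were called in the average and at neither age. The same held for Mtor, which is not a member, with an adjusted limma p of 0.0832 at 5 months and 0.133 later. All 16 members had the same sign at both ages. They were selected on the average of both ages, so the shared sign is not separate evidence. These calls rest on 3 animals a group: leaving out both mTOR libraries of 5 months with the most exocrine pancreas RNA left 2 calls at 5 months, Draxin and Zfp990, and leaving out any 1 library of the later ages left 3 to 5 calls there. The first of these fits keeps 1 mTOR library at 5 months, and its calls fell over all genes too. Over all tested genes, leaving out 1 library of the later ages left 62 to 363 calls there, against 281 with every library. Without old mTOR replicate 1, the library richest in erythroid RNA, 4 members were called at the later ages (Tnfrsf1b, Draxin, Zfp534 and Zfp990). There 62 of 15425 genes were called. In the average 15 members were called without that library, where 1106 of 15425 genes were, and Casz1 was lost.

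A call at 1 age and not at the other does not show a difference between ages, and the difference itself was tested as an interaction. No member passed (limma, 0 of 53), where 0.0% of tested genes passed. At an unadjusted p under 0.05 there were 5 members and 850 genes in all (5.48%). edgeR and DESeq2 also called no member, and each called 0 of all 15512 tested genes. Those 5 were Fbxo44 at 1.23, Zfp990 at -0.90, Masp2 at -1.78, Espn at 0.88 and Mad2l2 at 0.75 on the log2 scale, each with an adjusted limma p of 0.787. The 95% interaction interval for Zfp990 was -1.72 to -0.083, beside changes of 7.40 at 5 months and 6.51 later. For Draxin the changes were -2.32 and -2.28, with an interaction interval of -1.02 to 1.09.

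**Figure D3:**
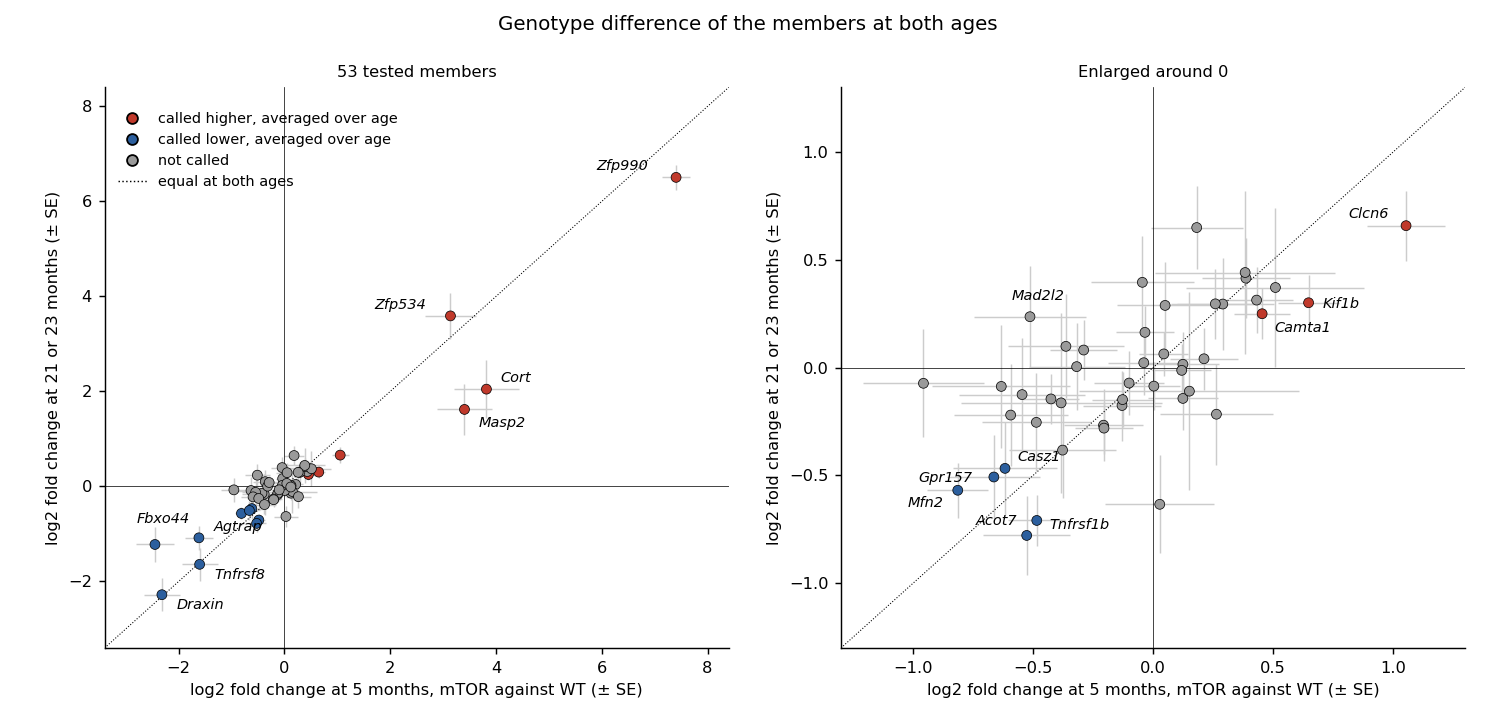
Log2 fold change of mTOR against WT at 5 months (horizontal axes) and at 21 or 23 months (vertical axes) for the 53 tested members, with bars of ± SE, colours for the call averaged over age and a dotted line where both ages are equal, and with the centre enlarged on the right. The 16 called members, which were selected on the average of both axes, have the same sign on each, and Mad2l2 lies at -0.51 and 0.24.

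No member was called for age within a genotype. Old against young WT spleens gave 0 of 53 with limma (6 at an unadjusted p under 0.05, where 11.3% of all tested genes were, and 0.0% of tested genes called), and old against young mTOR spleens also gave 0 (6 at an unadjusted p under 0.05, where 9.35% of all tested genes were, and 0.00645% of tested genes called). The members' counts at an unadjusted p are thus near the shares over all genes. edgeR and DESeq2 called no member either. Of all 15512 tested genes edgeR called 0 for age in either genotype, and DESeq2 called 102 in WT and 124 in mTOR spleens. H6pd was among the 6 in both genotypes, with changes of 0.58 in WT and 0.46 in mTOR spleens. Adjusted with limma, its p-values were 0.362 and 0.403. For Pex14 the values were -0.79 and -0.56, and for Fbxo44 in mTOR spleens 1.48.

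Along the chromosome, 9 of the 16 called members lay before Mtor and 7 after it. 3 of 4 tested members more than 1 Mb before Mtor were called, 6 of 10 within 1 Mb before it, 4 of 14 within 1 Mb after it, 2 of 11 from 1 to 3 Mb after it and 1 of 14 beyond 3 Mb after it. The median absolute change was 0.77 in the 10 members just before Mtor and 0.19 in the 14 members beyond 3 Mb after it. No test of these counts was made, and the filter on low values let 5 of the called members in through 1 genotype only.

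Tested genes that are not members were counted in the same way. Within 5 Mb, 10 of 26 of them were called, 9 of 18 before Mtor and 1 of 8 after it. C230088H06Rik, a long noncoding RNA gene at -0.956 Mb, was 22.2, 10.7 and 8.97 in WT and 258, 319 and 185 in mTOR spleens at 5 months, with a log2 fold change of 4.26 (SE 0.27, adjusted p = 5.75e-06). The 5 next by size were Platr16 at 2.97 (SE 0.27, adjusted p = 7.14e-05), the pseudogene Znf41-ps at -2.66 (SE 0.40, adjusted p = 0.002), Zfp985 at 2.45 (SE 0.38, adjusted p = 0.00244), the long noncoding Gm26573 at 1.94 (SE 0.14, adjusted p = 1.18e-05) and Zfp984 at -1.32 (SE 0.12, adjusted p = 7.14e-05). Of the 6 tested genes within 5 Mb whose symbol begins with Zfp, 3 were called higher (Zfp990, Zfp534 and Zfp985), 2 were called lower (Zfp984 and Zfp933, the latter at -1.07 (SE 0.14, adjusted p = 0.000635)) and Zfp979 was not called. This grouping was chosen after the values were seen. Platr16 and Zfp985 passed the filter on low values only through mTOR libraries and Znf41-ps only through WT libraries. Without all genes that passed through 1 genotype only, 7 of 21 non-members were called, 6 of 14 before Mtor and 1 of 7 after it.

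Over all tested genes but Mtor, 16 of 39 within 1 Mb were called, 2 of 11 from 1 to 2 Mb, 8 of 29 from 2 to 5 Mb, 17 of 111 (15.3%) from 5 to 10 Mb and 10 of 163 from 10 to 20 Mb. Without the genes that passed the filter through 1 genotype only, these were 11 of 32 within 1 Mb, 2 of 11, 5 of 26, 14 of 102 and 9 of 155. The rest of chromosome 4 had 52 of 586 and the other chromosomes 1122 of 14527 (7.72%), or 1020 of 13780 (7.40%) without such genes. Chromosome 4 as a whole had 11.2% of its 939 tested genes called, the highest share of any autosome or of the X, followed by chromosome 12 at 10.6%.

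**Figure D4:**
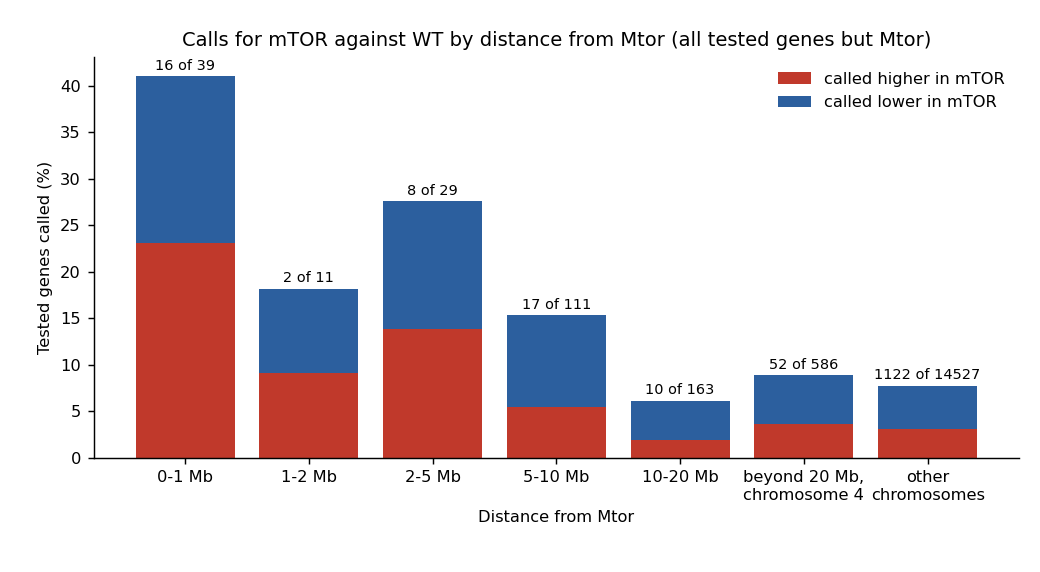
Share of tested genes called for mTOR against WT averaged over both ages (vertical axis, percent) by distance from Mtor (horizontal axis), with calls higher in mTOR stacked below calls lower in mTOR and the counts above each bar. The share is 41.0% within 1 Mb and 7.72% on the other chromosomes.

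The ageing tables give the same genes in other WT males. In CPM, reads scaled to a library's total reads in genes, Zfp990 ran from 0.109 to 0.437 in the 6 WT and from 35.8 to 53.6 in the 6 mTOR spleens of the mTOR table, and from 0 to 1.14 in the 45 ageing spleens. Zfp534 ran from 0 to 0.437 and from 2.198 to 4.23 in those WT and mTOR spleens, and from 0 to 0.975 in the ageing spleens. So for these 2 genes every mTOR spleen was above all 45 ageing spleens, while the other 14 called members of mTOR spleens overlapped the ageing range. Draxin, for example, ran from 1.34 to 4.08 in mTOR spleens and from 3.23 to 22.6 in ageing spleens. The tables were normalized separately, and libraries are therefore compared here in CPM.

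In the 45 ageing brains Zfp990 ran from 0 to 0.569 CPM and Zfp534 from 0 to 0.712. Clcn6, Kif1b, Camta1, Fbxo44, Mfn2 and Acot7 had a higher lowest brain value than their highest spleen value in the ageing tables: Camta1 ran from 919 to 1554 in brain and from 47.0 to 145 in spleen, and Kif1b from 1320 to 1826 and from 65.5 to 196. Agtrap went the other way, from 4.73 to 11.8 in brain and from 18.9 to 77.7 in spleen, as did Draxin, from 0 to 2.14 and from 3.23 to 22.6, and Tnfrsf1b, from 1.66 to 9.14 and from 40.6 to 126.

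**Figure D5:**
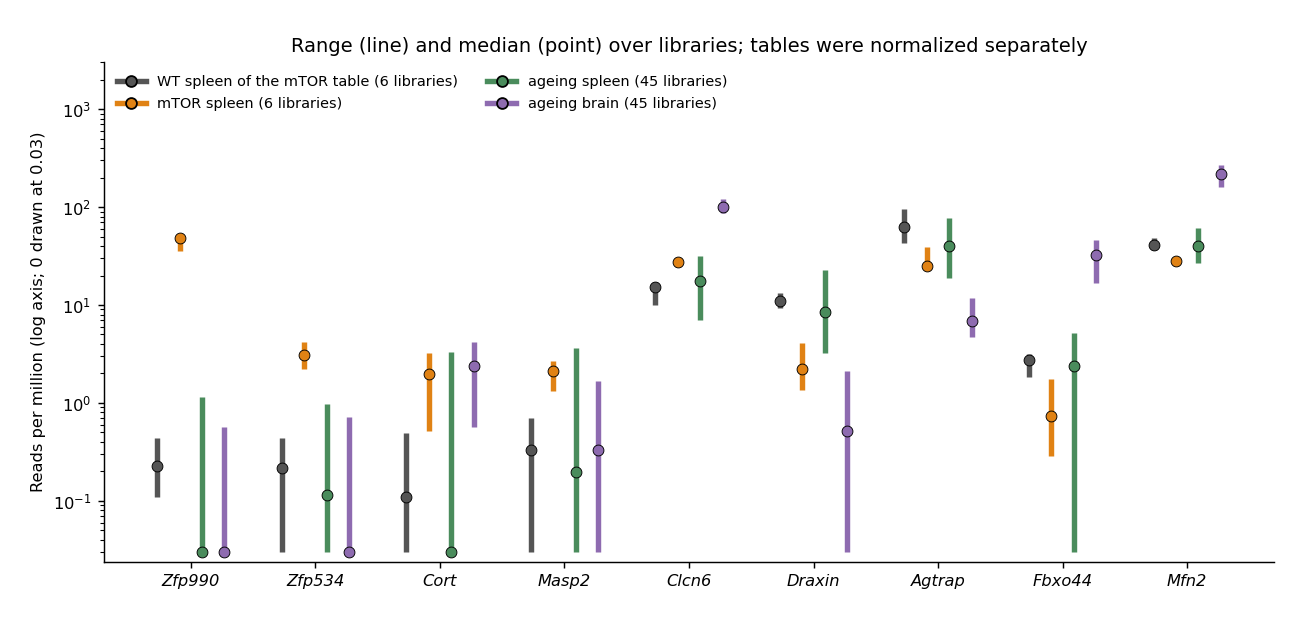
CPM (vertical log axis, 0 drawn at 0.03) of 9 called members in WT and mTOR spleens of the mTOR table and in the ageing spleens and brains, where lines span the lowest to the highest library and points are medians. Zfp990 and Zfp534 in mTOR spleens stand clear of every other group, and the other members overlap at least 1 of them.

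No member was called for age by limma in either ageing table at 26 against 3 months. In spleen 0 of 49 tested members were called, where 0.369% of tested genes were, and in brain 0 of 50, where 0.663% were. At an unadjusted p under 0.05 there were 7 members in each tissue, near the shares over all tested genes of 16.2% in spleen and 10.1% in brain. edgeR called no member in either tissue, where it called 707 of 16243 genes in spleen and 114 of 15546 in brain. The limma count of spleen members rested on single libraries. Without 26-month replicate 3 it was 6 (Kcnab2, Casz1, Dnajc11, Rere, Pik3cd and Gpr157), where 1789 of 16211 genes were called. Without 26-month replicate 4 it was 1 (Casz1), where 682 of 16234 genes were. Without 3-month replicate 5 it was 2 (Casz1 and Pik3cd), where 685 of 16228 genes were. The fit with every library called 60 of 16243 genes, so calls over all genes rose in these fits too. With all libraries Casz1 was -0.96 (SE 0.29, adjusted p = 0.095) and Pik3cd -0.71 (SE 0.27, adjusted p = 0.159). The 12 members called for genotype and tested in ageing spleen ran from -0.96 to 0.95.

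The kinase pathway itself was examined with a list of 48 components of mTORC1, mTORC2 and their regulators. Of 47 tested, Mtor itself not counted, 1 was called higher and 0 lower averaged over age, where 7.93% of all tested genes were called. At an unadjusted p under 0.05 there were 7, where 24.2% of all tested genes were. The median change was -0.0063 against 0.012 over all tested genes. The called gene was Deptor, an inhibitor that binds both complexes, which averaged 316 ± 123 (SD, n = 6) in WT and 503 ± 179.9 (SD, n = 6) in mTOR, with a log2 fold change of 0.68 (SE 0.16). Its adjusted limma p was 0.0207.

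Cell markers differed between the genotypes beside these changes. All 6 plasma cell markers were called lower in mTOR spleens, and their summed value ran from 26299 to 48252 in WT and from 9336 to 22416 in mTOR libraries. For natural killer cells 4 of 6 were lower, with sums of 1219 to 1969 and 674 to 1234, for T cells 2 of 8 and for megakaryocytes 2 of 6. B cell, dendritic cell and adipocyte lists each had 1 gene called higher, and no gene was called in the other 5 lists. Adipocyte sums did not overlap between the genotypes, at 1029.7 to 1506 in WT and 1537 to 3301 in mTOR libraries. B cell markers summed to at least 29436 in every library, with Ms4a1 listed at 0 throughout. The sums of exocrine pancreas and erythroid markers are those given at the start. What part any of these cell markers had in the member differences was not tested.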

How the data were processed

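RNA was taken with TRI-Reagent from frozen tissue and cleaned on Monarch columns, and libraries came from a TruSeq kit and a ligation-mediated protocol, per the labels' protocols. Tools listed without their roles in the submitters' processing notes are DESeq2, R 3.5.1, HISAT2 2.1.0, cutadapt, SAMtools and bcl2fastq 2.20, with the GRCm38 (mm10) build. The read counter, its annotation and its use of strand are not given in the sources used here. The unit of the deposited files is a normalized signal, in which the authors scaled each library's gene read counts by a single factor. Every value came out as a whole number of reads (100% in each table, tolerance 0.01 of a read).

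The members, gene lists and tests were chosen with earlier results of these data known. limma 3.58.1 in R 4.3.3 was run on log2(value + 1) with a mean-variance trend and a mean for each genotype and age, on genes with a value of 10 in at least 3 libraries (5 in the ageing tables). Tests were 2-sided and adjusted by Benjamini-Hochberg over all tested genes, and a call is an adjusted p under 0.05. edgeR 4.0.16 and DESeq2 1.42.0 on whole reads were alternatives, as were other pseudocounts, filters, TMM scaling, a block of animals with neighbouring numbers and leaving out each library. The limma fit of the mTOR table was tested on simulated counts, with changes planted only in genes that were not low. Animals of 21 and 23 months were pooled. 2 pairs of brain libraries differed by less than sampling noise (chi-square of 0.570 and 0.625 per gene) and each pair was counted as 1 sample in the brain fit.

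Positions and exon overlaps are from GENCODE M21 on GRCm38, sequences from RefSeq. Counting intervals are exact 95% intervals. Named with values in every library are Mtor, the called members and members with the smallest and largest change of a role group, and up to 6 called non-members within 5 Mb. Members just outside the threshold, or named for their neighbour, were chosen after their values were seen.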

Additional observations from a re-analysis of the deposited data

Results flagged for a closer look

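Mad2l2, which encodes a subunit of DNA polymerase zeta and an adaptor of DNA double-strand break repair, stood out for its genotype difference. The sign was opposite at the 2 ages, and the genotype groups did not overlap at either age. All 3 mTOR values were below all 3 WT values at 5 months and above all 3 at 21 or 23 months. The same pattern was seen in 43 of the 15512 tested genes (0.277%). The interaction was 0.75 on the log2 scale (95% interval 0.034 to 1.46), with an unadjusted p of 0.0414 and an adjusted limma p of 0.787, so the difference between ages did not pass the test.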

How the results depend on the processing

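The labels give no replicate numbers shared between groups and do not say that animals are paired, but each WT animal has an mTOR animal of the same age with a neighbouring number in its title. The deviations of these 6 pairs from their group means had correlations of -0.23 to 0.065 over 15512 genes. A fit with these pairs as a replicate block, added after seeing the data, called 14 members in the average (Casz1 and Gpr157 were lost), 11 at 5 months, 6 later and 0 in the interaction. Of 370 alternative values for Mtor and the 16 called members, 348 kept their direction and call, 22 lost the call and 0 reversed. 15 of the losses were Casz1 and 3 were Camta1. Leaving out the 2 mTOR libraries of 5 months with the most exocrine pancreas RNA, an alternative chosen after seeing the data that leaves a lone sample assumed to vary like the other groups, lost Mtor, Acot7 and Gpr157 beside those 2. Of 124 alternative member counts, 113 stayed within 1.5 times. The 5-month count of 11 was 7 with a value of 50 required in 3 libraries and 2 without those pancreas-rich libraries. With a value of 50 required, 255 of 11985 genes were called at 5 months. The later count of 7 was 4 with no filter on low values, where 181 of 25214 genes were called. It was also 4 when the 2 groups were fitted alone, where 62 of 14859 genes were called. DESeq2 called 16 members at 5 months and 10 later, and 19 in the average, where edgeR called 18. Of all 15512 tested genes edgeR called 1283 in the average, and the DESeq2 counts over all genes follow below.

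Leaving out each library in turn gave 14 to 17 calls in the average, 9 to 11 at 5 months, 3 to 5 at 21 or 23 months, 0 to 6 in ageing spleen and 0 to 0 in ageing brain, in the interaction and for age within each genotype. Counts over all genes moved more: 1230 genes were called in the average with all libraries, 1897 by DESeq2 and 300.0 without the pancreas-rich libraries. At 5 months these were 284, 908 and 13, and later DESeq2 called 802 and the fit of 2 groups 62, as did the shared fit without old mTOR replicate 1, where the shared fit called 281. In the ageing spleen limma called 60 genes and edgeR 707, and limma called 0 to 1789 when 1 library was left out. Depth limits what the low members show: Zfp534 had 13 WT and 176 mTOR reads in all, and Cort, Masp2, Tnfrsf9 and Fbxo2 had fewer in both genotypes together.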
